A study of Mus musculus with 2 samples.

Results

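Squamous epithelial cells of the adult mouse esophagus were selected as the cells that carried the adult esophagus tag and either of the 2 squamous epithelial labels of the authors' annotation. This rule gave 232 cells of the 7808 cells in the series, all of them with the first squamous label. They made up 69.2% (232 of 335) of the cells with that tag, beside 31 stromal, 30 smooth muscle, 17 endothelial, 12 neural, 7 columnar epithelial and 5 immune cells and 1 cell of a second stromal label.

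The study profiled single cells of the esophagus, the gastro-esophageal squamocolumnar junction (GE-SCJ) and the stomach of wild-type C57BL/6 mice at E15, E19, pup and adult stages, to follow how the squamous and columnar linings form and meet. The labels give the sequenced animals as wild type and name no treatment. The tissues were digested with collagenase II, each region and stage was marked with 1 oligonucleotide tag, and all tags were sequenced as a single pool with 10x Genomics 3′ chemistry. Mice were mixed within a tag (3 mice of 8 weeks for the adult, 2 for E19, 6 for E15 and 2 for the pups of day 2, per the labels, whereas the methods give 3 mice), so each group is 1 sample without replicates and no difference between groups could be tested.

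The adult esophageal squamous cells held 3209407 unique molecular identifiers (UMIs, single counted RNA molecules), with a median of 9974 UMIs and 2870 genes per cell and a range of 540 to 79817 UMIs. They were compared with 123 squamous cells of the E19 esophagus (1709188 UMIs, median 12568 per cell) and 87 squamous cells of the adult GE-SCJ (1552431 UMIs, median 14303). The 64 squamous cells of the E15 esophagus and the 85 of the pup esophagus are given beside them as levels. The level of a gene is its UMIs summed over the cells of a group as counts per 1000000 UMIs of the group (CPM). Since 3′ counting takes 1 molecule at a time, levels do not scale with gene length. Exact 95% intervals follow values in parentheses and cover counting error only.

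The esophagus is lined by a stratified epithelium that renews from its basal layer. Basal cells rest on a basement membrane through hemidesmosomes, divide, and make the keratins Krt5, Krt14 and Krt15. Cells that leave the layer stop dividing, change to the keratin pair Krt13 and Krt4, join neighbours with desmosomes, and load the proteins that transglutaminases later cross-link into a cornified envelope, with loricrin (*Lor*) among the last. In the mouse, unlike the human, the surface of the esophagus is keratinized.

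The upstream sequences of 4 genes of the differentiated layers and 1 gene of the basal layer are shown because the first 4 contain the letters TGANTCA, a form of the motif bound by the AP-1 factors of the Fos and Jun families, and the last does not. Each is the 250 bases before the gene's start from RefSeq on GRCm38.p6, written 5′ to 3′ on the strand of the gene, and capitals mark the match. The motif reads the same on both strands and was the only motif searched. *Lor* codes for loricrin (chr3:92083143-92083392, minus strand), and its match begins 48 bases before the start. *Krtdap* codes for keratinocyte differentiation-associated protein (chr7:30787655-30787904, plus strand, match 81 bases before the start), and *Sbsn* for suprabasin (chr7:30751221-30751470, plus strand, 119 bases). The match of the suprabasal keratin *Krt13* (chr11:100121567-100121816, minus strand) lies 196 bases before its start. The window of the basal keratin *Krt5* (chr15:101712906-101713155, minus strand) holds none.
Lor: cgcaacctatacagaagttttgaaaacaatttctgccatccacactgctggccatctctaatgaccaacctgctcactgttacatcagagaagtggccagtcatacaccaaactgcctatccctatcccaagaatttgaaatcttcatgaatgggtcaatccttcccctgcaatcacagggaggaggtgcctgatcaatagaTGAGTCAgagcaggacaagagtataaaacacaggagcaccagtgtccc
Krtdap: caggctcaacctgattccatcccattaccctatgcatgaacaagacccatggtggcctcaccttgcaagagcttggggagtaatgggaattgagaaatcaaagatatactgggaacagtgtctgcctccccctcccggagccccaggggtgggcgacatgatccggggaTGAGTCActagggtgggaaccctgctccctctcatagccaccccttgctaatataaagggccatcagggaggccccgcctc
Sbsn: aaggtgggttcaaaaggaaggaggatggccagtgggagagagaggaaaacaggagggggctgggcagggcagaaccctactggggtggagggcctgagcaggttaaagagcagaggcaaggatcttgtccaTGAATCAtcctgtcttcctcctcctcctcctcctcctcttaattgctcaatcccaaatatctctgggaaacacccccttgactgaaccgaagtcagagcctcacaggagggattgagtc
Krt13: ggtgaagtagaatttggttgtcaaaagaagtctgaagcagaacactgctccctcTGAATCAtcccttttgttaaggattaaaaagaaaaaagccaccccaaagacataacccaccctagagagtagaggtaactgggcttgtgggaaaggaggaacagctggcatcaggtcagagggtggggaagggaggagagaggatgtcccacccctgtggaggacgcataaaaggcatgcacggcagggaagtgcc
Krt5: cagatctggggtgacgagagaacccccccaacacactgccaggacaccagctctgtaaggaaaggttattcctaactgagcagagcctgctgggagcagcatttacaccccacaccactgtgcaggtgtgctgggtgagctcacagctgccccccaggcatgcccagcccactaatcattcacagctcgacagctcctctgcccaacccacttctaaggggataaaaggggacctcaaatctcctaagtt
Of all 32851 windows of this length, 6.75% held the motif. Among the genes of the lists used here, it was found for 16 of 34 cornified envelope genes, 4 of 15 protease inhibitors, 1 of 7 suprabasal keratins, 0 of 8 hemidesmosome genes and 0 of 17 proliferation genes. Of the genes with the largest differences between basal and differentiated cells, it was found for 3 of 10 that were higher and 1 of 8 that were lower in the most differentiated cells. The ranking of lower genes was led by *Ghrl* and *Ttr*, whose UMIs lay almost all in 1 cell. A match is a string of letters and not a shown binding site.

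The label was checked against its markers. All 8 squamous markers were found in the adult cells, with a summed level of 51016 CPM against 247 CPM in the 354 immune cells of the pool, which should lack them and serve as the background of free RNA. *Krt13* was found in 97.0% (93.9–98.8%) of adult cells, *Krt15* in 87.1%, *Krt5* in 77.2% and *Krt14* in 58.2%, against 48.3%, 14.1%, 11.9% and 4.80% of immune cells (median 8266 UMIs). *Krtdap* was found in 56.5% of adult cells and 28.2% of immune cells, and *Lor* in 34.5% and 12.4%. After thinning each cell to 5000 UMIs, which left out 61 of the 232 adult cells and 101 of the 354 immune cells, the shares were 98.2% and 28.5% for *Krt13*, and 29.2% and 7.91% for *Lor*. Markers of other cells were low. The immune list summed to 4.05 CPM in adult squamous cells, with *Ptprc* at 0 UMIs, the endothelial list to 2.80 CPM, with *Kdr* at 0 UMIs, the neural list to 1.25 CPM, and the fibroblast list, led by *Col3a1*, to 510 CPM. Columnar genes summed to 1443 CPM, led by the gastric protease precursor *Pgc*, against 2408 CPM in immune cells.

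A few cells stood apart. Of the 232 cells, 18 held more UMIs of other cells' markers than of squamous markers, and 1 had mostly prenatal cells among its 15 nearest neighbours, while 87.7% of all neighbours of the adult squamous cells were adult cells. One cell with 40432 UMIs held 19895 of the 20199 UMIs of ghrelin (*Ghrl*), a hormone of gastric endocrine cells, with 666 of the 696 UMIs of transthyretin (*Ttr*) and 153 of the 170 of the endocrine granule protein *Chga*. Without this cell, *Ghrl* in the adult group was at 95.9 CPM instead of 6294 CPM, and immune cells had 86.6 CPM. In all, 2 adult squamous cells had at least 100 *Ghrl* UMIs, so part of the remaining UMIs lay in 1 further cell. A different cell held 396 of 898 *Hbb-bs* (beta globin) UMIs, and another held 147 of 1088 *H19* UMIs and 175 of 545 *Col3a1* UMIs. No barcode occurred more than once in the pool.

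Among genes that are neither mitochondrial nor ribosomal, *Krt13* was the most abundant in adult cells at 27514 CPM (27333–27696), or 2.75% of all UMIs. *Gm42418*, whose locus overlaps ribosomal RNA sequence, came next with 25346 CPM and is uncertain for that reason. It was followed by *Krt4* at 18750 CPM, *Krtdap* at 15312 CPM, the galectin *Lgals7* at 9980 CPM and the protease inhibitor *Slpi* at 9719 CPM. Further members of the 20 most abundant genes were the fatty acid-binding protein *Fabp5* (8594 CPM), the metallothionein *Mt4* (7926 CPM), *Lor* (4315 CPM), the cornified envelope proteins *Cnfn* (4066 CPM) and *Crct1* (2905 CPM), dermokine *Dmkn* (3716 CPM) and *Sbsn* (2895 CPM). Some of these genes were carried by few cells. Of the 13849 *Lor* UMIs, 90% lay in 14 cells, of the 31191 *Slpi* UMIs in 12 cells, and of the 88303 *Krt13* UMIs in 48 cells. *Lgals7* was spread over 229 cells, 125 of which held 90% of its UMIs, and *Krt15* over 202 cells, 116 of which held 90%.

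Cells were then placed from basal to differentiated by the share of *Krt13* and *Lor* UMIs among the UMIs of *Krt5*, *Krt14*, *Krt15*, *Krt13* and *Lor*. Most adult cells lay near an end of this order. In 96 cells (41.4%, 35.0–48.0%) the share was under 20%, in 89 (38.4%, 32.1–45.0%) it was over 80%, and 46 cells (19.8%, 14.9–25.5%) lay between. The median share was 39.5%, and 1 cell had no UMI of the 5 genes. Of the adult GE-SCJ cells, 39 of 87 lay under 20% and 34 over 80%.

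E19 cells spread differently along the same order. In E19 cells cut into 4 groups along it, *Krt15*, a basal gene of the share, stood at 4912, 4970, 5848 and 6601 CPM. A given share thus need not mark the same state at both stages, and the part of *Krt15* in the spread was not tested. Of the 123 E19 cells, 60 (48.8%, 39.7–58.0%) lay under 20%, 60 between 20% and 80%, and 3 (2.44%, 0.51–6.96%) over 80%, and 27 of them fell between 60% and 70%, where 11 adult cells lay. Of the 64 E15 cells, 51 lay under 20% and 3 over 80%, and of the 85 pup cells 42 and 19. Among adult cells, the share followed the combined share of *Krt4*, *Sbsn* and *Krtdap* against *Col17a1*, *Itga6*, *Itgb4* and *Itga3* with a Spearman's rho of 0.83 over 231 cells, the first principal component of other genes with 0.79, and UMIs per cell with 0.35. These are descriptions across cells of 1 library that share its depth and free RNA.

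**Figure D1:**
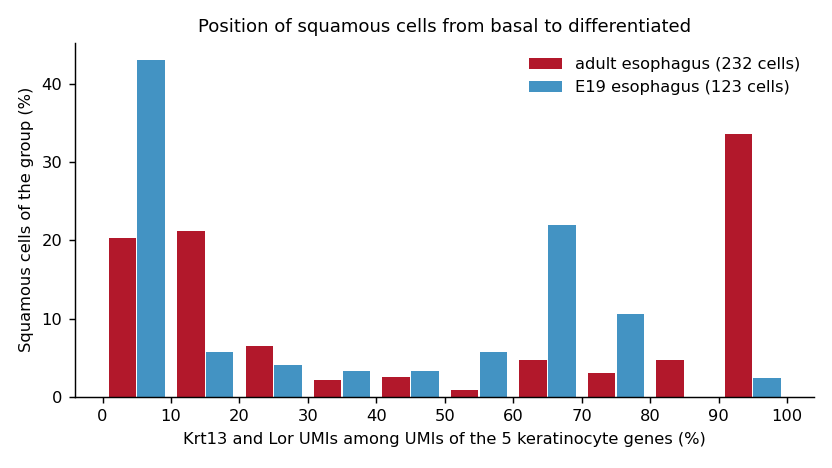
Share of *Krt13* and *Lor* UMIs among the UMIs of *Krt5*, *Krt14*, *Krt15*, *Krt13* and *Lor* per cell (x axis, %, in steps of 10) against the percent of squamous cells of the group (y axis), for 232 adult and 123 E19 esophageal cells. Adult cells pile up at both ends, with 78 cells over 90%, whereas E19 cells form a low peak and a middle peak at 60% to 70% with 27 cells.

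The 232 cells were cut along the order into 4 bins of 58, from bin 1 (shares of 0% to 11.2%) to bin 4 (96.7% to 100%), with the cell that had no UMI of the 5 genes at the median. Bins are ranges and not cell types. At the first boundary both neighbours had 11.2%, at the second 39.5% and 41.2%, and at the last 96.6% and 96.7%. Depth differed along the order, with medians of 5604, 8898, 10952 and 25762 UMIs per cell in bins 1 to 4, and the median mitochondrial share was 5.55%, 3.52%, 3.84% and 1.88%. The part of depth in the differences between bins was examined only by thinning, and a higher level with more cells cannot be told apart from more RNA per cell in these sums.

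The genes that set the order had these levels. *Krt5* (chr15:101707070-101712898) stood at 2967, 3285, 1340 and 34.7 CPM in bins 1 to 4. *Krt14* (chr11:100203162-100207548) stood at 2088, 1785, 170 and 7.63 CPM, and *Krt15* (chr11:100131758-100135928) at 3815, 3683, 1329 and 214 CPM. Of the 3 basal keratins *Krt14* was thus already low in bin 3, where *Krt5* and *Krt15* were still high. *Krt13* (chr11:100117327-100121566) stood at 658, 2241, 19362 and 49859 CPM, which in bin 1 was above the 89.3 CPM of immune cells. *Lor* (chr3:92080271-92083142) stood at 21.7, 11.2, 198 and 9495 CPM, and in bins 1 and 2 it was near its level in immune cells (12.5 CPM).

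Between bin 4 and bin 1, 2322 genes other than these 5 had at least 100 UMIs over both bins. Of these, 630 (27.1%) were at least 2-fold higher in bin 4 and 368 (15.8%) at least 2-fold lower, and the median log2 ratio of all of them was 0.15. The cell with the most *Ghrl* UMIs lay in bin 1 and held 8.8% of its UMIs. *Ghrl* and *Ttr* led the lower genes by their interval and rested on this cell. With mitochondrial, ribosomal and hemoglobin genes left out of the library size, which moved every ratio by −0.26, the counts were 527 and 525. Thinning to 5000 UMIs left out the cells with fewer, 24 of 58 in bin 1 and 13 of 58 in bin 4. In the thinned cells, 109 genes were higher and 66 lower of 449 genes. Of the genes so called, 106 and 58 were also called at full depth.

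Genes of the basement membrane contact were lower in differentiated cells. Of 6 hemidesmosome and basement membrane genes with enough UMIs, 5 were at least 2-fold lower in bin 4 (background 15.8%) and 0 higher, with a median log2 ratio of −4.62. The hemidesmosomal collagen *Col17a1* stood at 486, 447, 115 and 4.86 CPM in bins 1 to 4, a log2 ratio of −6.46 (−7.69 to −5.46). The integrin *Itgb4*, its partner in the hemidesmosome, stood at 243, 217, 59.5 and 2.78 CPM. *Dst*, the plakin that ties the complex to keratins, was the most abundant of the list with 697 CPM in bin 1 and 18.1 CPM in bin 4. Of 16 squamous transcription factors, 2 were lower in bin 4, a share not above the background of 15.8%. These were *Trp63*, the master regulator of stratified epithelia, at 389, 357, 146 and 43.7 CPM and *Sox2*, a factor of foregut squamous identity, at 265, 232, 132 and 52.8 CPM. In the other direction, 10 of the 16 were higher in bin 4 (background 27.1%), and they included *Hopx* (13.0, 31.8, 265 and 1977 CPM), *Klf4* (139, 146, 335 and 614 CPM) and *Grhl3* (2.17, 9.35, 82.8 and 128 CPM), which act in epidermal differentiation and barrier formation.

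Proliferation genes stood at lower levels in bin 4 than in the other bins. The 20 genes of the list summed to 5847, 5760, 3018 and 338 CPM in bins 1 to 4. All 7 members with enough UMIs were at least 2-fold lower in bin 4 than in bin 1 (background 15.8%), with a median log2 ratio of −6.41. The proliferation antigen *Mki67* stood at 330, 271, 189 and 2.08 CPM, and the topoisomerase *Top2a* at 469, 447, 228 and 4.86 CPM. The replication-linked histones *Hist1h1b* (254, 251, 44.0 and 0 CPM), *Hist1h2ap* (438, 368, 73.7 and 3.47 CPM) and *Hist1h2ae* (373, 432, 95.7 and 2.78 CPM) and the PCNA clamp-associated factor *Pclaf* (343, 295, 85.4 and 2.08 CPM) were among the 12 lowest, as were the mitotic genes *Cenpf* (323, 284, 211 and 2.08 CPM) and *Ube2c* (438, 479, 279 and 4.16 CPM). Cells with a *Mki67* UMI numbered 26, 28, 20 and 3 of 58, and those with a *Top2a* UMI 29, 27, 21 and 7. Of the immune cells, which also divide, 28.8% had a *Mki67* UMI and 31.9% a *Top2a* UMI. In bin 3 the levels of DNA replication genes and of mitosis genes lay apart, a difference that was not tested. Summed over 9 genes of DNA replication, levels were 579, 585, 134 and 78.4 CPM in bins 1 to 4, and over 9 genes of mitosis 2329, 2191, 1345 and 26.4 CPM. Cells with at least 5 UMIs of the replication genes numbered 17, 16, 7 and 5, and of the mitosis genes 25, 26, 16 and 0. The authors' phase calls put 14, 15, 1 and 2 cells of 58 in S phase and 21, 22, 16 and 1 in G2/M. The part of free RNA of other dividing cells in these levels was not tested.

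Suprabasal keratins and cornified envelope genes were higher in bin 4. The 34 cornified envelope genes found in the files summed to 658, 871, 18519 and 88428 CPM in bins 1 to 4, against 192 CPM in immune cells, and 22 of 23 with enough UMIs were higher in bin 4 (background 27.1%, median log2 ratio 7.03, or 6.89 with the 6 genes at 0 UMIs in bin 1 set to their lower bound). *Krtdap* (chr7:30787896-30791097) stood at 47.7, 46.7, 8038 and 29763 CPM, which in bins 1 and 2 was below its 76.8 CPM in immune cells. *Sbsn* stood at 36.9, 39.3, 1391 and 5677 CPM, and *Cnfn* (cornifelin) at 4.34, 9.35, 1140 and 8440 CPM. The small proline-rich *Sprr3* stood at 8.68, 3.74, 235 and 4970 CPM, *Crct1* at 6.51, 7.48, 436 and 6233 CPM, and the protease *Asprv1*, which processes filaggrin, at 2.17, 5.61, 241 and 3801 CPM. The transglutaminase *Tgm3*, which cross-links envelope proteins, was already at 144 CPM in bin 2 and at 1320 CPM in bin 3, and reached 2285 CPM in bin 4. *Sprr2a3*, a small proline-rich protein, was the single member of the list that was lower, at 113 CPM in bin 1 and 51.4 CPM in bin 4. *Krt4* (chr15:101918535-101924735), the partner of Krt13, stood at 276, 503, 10772 and 35712 CPM. Of 11 suprabasal keratins in the files, 3 had enough UMIs apart from *Krt13*, and all 3 (*Krt4*, *Krt78* and *Krt80*) were higher. *Krt6a*, a keratin of stressed and fast-growing epithelium, was below the minimum and stood at 80.3, 97.2, 250 and 9.72 CPM.

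**Figure D2:**
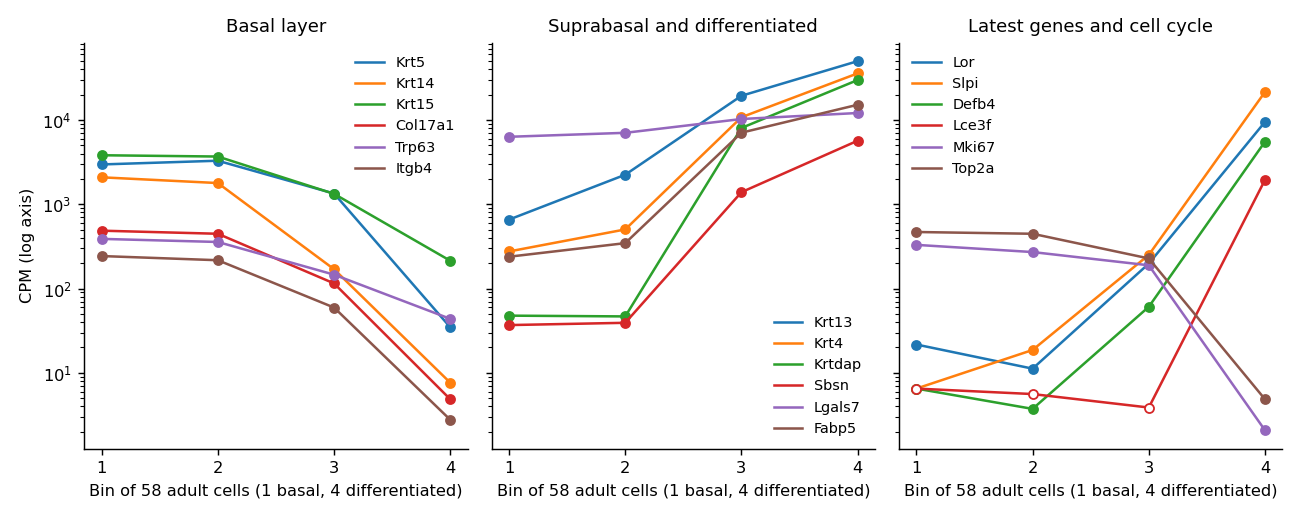
Level in CPM (y axis, log axis) of 18 genes in 4 bins of 58 adult esophageal squamous cells ordered from basal to differentiated (x axis), with an open symbol where a bin had no UMI, drawn at the level of 3 UMIs. *Krt5*, *Krt14* and *Col17a1* descend, *Krt13*, *Krt4* and *Krtdap* climb between bins 2 and 3, and *Slpi*, *Defb4* and *Lce3f* climb between bins 3 and 4, where *Mki67* and *Top2a* drop.

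Junction genes differed along the order too. Of 11 desmosome genes, 10 were higher in bin 4 (background 27.1%), with a median log2 ratio of 2.23. *Dsg1a* (2.17, 1.87, 84.1 and 351 CPM) and *Dsc1* (0, 0, 24.6 and 364 CPM, at least 56.0-fold higher in bin 4), the cadherins of upper layers, came late, while *Dsc3* (97.7, 140, 256 and 130 CPM) was present throughout. Desmoplakin (*Dsp*), which anchors keratins to the plaque, stood at 345, 275, 1308 and 1857 CPM. Of 6 tight junction and cadherin genes, 4 were higher and 1 lower (background 27.1% and 15.8%). Claudins 4 and 17 (*Cldn4*, *Cldn17*) had 0 UMIs in bins 1 and 2 and stood at 81.2 and 89.5 CPM in bin 4, whereas *Epcam* was at 150 CPM in bin 1 and 71.5 CPM in bin 4.

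Lipid enzymes, protease inhibitors and defense genes were higher in bin 4. All 15 lipid genes with enough UMIs were (median log2 ratio 3.68), beside 27.1% of all genes. *Fabp5* stood at 239, 346, 7064 and 15149 CPM, the very-long-chain fatty acid elongase *Elovl4* at 4.34, 3.74, 124 and 743 CPM, and the lipoxygenase *Alox12b*, which makes the covalent lipid envelope, at 0, 0, 69.9 and 434 CPM. Of 15 protease inhibitors, 12 were higher and 0 lower (background 27.1% and 15.8%), and *Slpi*, an inhibitor of neutrophil elastase, stood at 6.51, 18.7, 251 and 21505 CPM. The serine protease inhibitors *Serpinb3a* (0, 1.87, 127 and 2883 CPM, at least 443-fold higher in bin 4) and *Serpinb12* (2.17, 0, 281 and 3013 CPM) came with it. *Spink5*, which holds kallikreins in check, stood at 21.7, 9.35, 269 and 2322 CPM, and the kallikrein *Klk14* at 0, 0, 6.47 and 1352 CPM. Of 21 defense genes, 16 were higher (background 27.1%). The defensin *Defb4* stood at 0, 3.74, 60.8 and 5532 CPM, at least 850-fold higher in bin 4 than the level of 3 UMIs in bin 1. *Lgals7* differed from the rest of this list, since it was high in every bin at 6315, 7039, 10263 and 12093 CPM.

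Immediate early and heat shock genes ran the other way. Of 18 genes, 13 were at least 2-fold lower in bin 4 (background 15.8%) and 1, *Hspb1*, was higher (1222, 931, 2074 and 3357 CPM). The 21 genes of the list summed to 15430 CPM in bin 1 and 8354 CPM in bin 4, against 20434 CPM in immune cells. The median mitochondrial share moved with them, from 5.55% in bin 1 to 1.88% in bin 4. Of other cells' markers, 4 of 7 columnar genes and 3 of 3 globin genes were lower in bin 4, and 0 of 4 fibroblast genes passed 2-fold. The part of the mitochondrial share and of free RNA in these genes was not tested. *Jun* stood at 1790, 1355, 904 and 380 CPM, *Fos* at 879, 703, 591 and 380 CPM, and the inducible chaperone *Hspa1a* at 1241, 1054, 741 and 257 CPM. Of the signalling lists, few genes had 100 UMIs over bins 1 and 4. Of 2 Notch genes 1 was higher and 0 lower in bin 4, and of 3 WNT genes 1 was higher and 1 lower. Of 6 genes of the EGF, FGF and PDGF pathways 4 were higher and 1 lower (median log2 ratio 1.59). The 1 BMP and TGF-beta gene with enough UMIs was higher. The background was 27.1% higher and 15.8% lower, and the Notch, WNT and BMP counts are too small to set apart from it. Levels of Notch and WNT members are given as a description, with *Jag2*, *Notch3* and *Wnt10a* under 100 UMIs. The Notch ligand *Jag2* stood at 139, 112, 11.6 and 1.39 CPM, and the receptor *Notch3* and the target *Nrarp* at 0, 3.74, 46.6 and 40.9 CPM and at 4.34, 14.96, 73.7 and 101 CPM. The WNT ligand *Wnt10a* stood at 69.5, 89.7, 12.9 and 0.69 CPM and *Wnt7b* at 23.9, 16.8, 36.2 and 131 CPM. In the detoxification list, *Adh7*, an alcohol and retinol dehydrogenase, was highest in bin 3 (278, 359, 887 and 281 CPM), the carbonyl reductase *Cbr2* was basal (334, 290, 82.8 and 4.16 CPM), and the aldehyde dehydrogenase *Aldh3a1* was highest in bin 4 (141, 196, 985 and 2874 CPM).

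A small set of cells in bin 4 carried the late cornified envelope genes. The 5 genes *Lce3a*, *Lce3b*, *Lce3c*, *Lce3e* and *Lce3f*, a cluster on chromosome 3, had UMIs in 22 adult cells, and 11 cells with at least 10 UMIs held 99.4% of them. These 11 cells were all in bin 4, with shares of at least 99.0%, and had a median of 41031 UMIs against 16560 in the other 47 cells of the bin. A share of 100% was found in 3 of them and in 19 of all cells of the bin, and the median share of the bin was 99.9%. In them *Lor* stood at 22416 CPM against 3666 CPM in the other cells, *Slpi* at 52170 against 7672 CPM, *Defb4* at 14880 against 1315 CPM, and repetin (*Rptn*) at 4356 against 82.6 CPM. *Krt13* (59185 against 45652 CPM) and *Krt4* (42393 against 32699 CPM) differed less, and *Fabp5* was lower, at 11121 against 16966 CPM. The cell with the most *H19* UMIs, described above as standing apart, was 1 of the 11, with 97 *Lce3* UMIs, *Krt13* at 7019 CPM and *Lor* at 2120 CPM. Without it, an alternative chosen after seeing the data, the other 10 had *Lor* at 24462 CPM, *Slpi* at 57298 CPM, *Defb4* at 16305 CPM and *Rptn* at 4726 CPM. The 11 cells were picked by their *Lce3* UMIs and are described here without a comparison of samples. Deep cells reach 10 UMIs more easily, so the depth of the 11 cells is not independent of the choice. Members of the *Lce3*, *Sprr2*, *Serpinb3* and histone families are close copies of one another, so the counts of single members are uncertain.

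Across stages, *Krt13*, *Krtdap* and *Lor* were highest in the adult cells. *Krt13* stood at 1772 CPM in E15, 8453 in E19, 3711 in pup and 27514 in adult cells. *Krtdap* stood at 242, 424, 39.1 and 15312 CPM and *Lor* at 16.3, 19.9, 11.3 and 4315 CPM, so before the adult stage *Lor* stayed near its level in immune cells (12.5 CPM). Basal keratins were ordered differently from one another. *Krt15* was highest in E19 (4247, 5656, 2293 and 1578 CPM), *Krt14* in the adult (116, 166, 240 and 642 CPM), and *Krt5* was at 912, 1095, 435 and 1312 CPM. The adult over E19 log2 ratio was −1.84 (−1.89 to −1.79) for *Krt15*, 1.94 (1.76 to 2.13) for *Krt14* and 0.26 (0.18 to 0.34) for *Krt5*.

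Between adult and E19, 5735 genes had at least 100 UMIs over both groups. Of these, 489 (8.53%) were at least 2-fold higher and 473 (8.25%) at least 2-fold lower in the adult, with a median log2 ratio of −0.18. With the smaller library size, which moved every ratio by −0.12, the counts were 437 and 622. UMIs of 4 Y-linked genes numbered 14 in adult and 133 in E19 cells, and *Xist*, the X inactivation transcript of females, stood at 2487 and 755 CPM, so stage and the sex of the pooled mice cannot be told apart.

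Many genes of the cornified envelope and of the lists that go with it were higher in the adult. Of 25 cornified envelope genes, 19 were higher (background 8.53%) and 1 was lower (background 8.25%), with a median log2 ratio of 3.63. Among the 12 largest differences by their interval were *Defb4* (2499 against 2.93 CPM, log2 ratio 9.48, 8.35 to 10.92), *Slpi* (9719 against 24.6 CPM, 8.59, 8.16 to 9.06) and *Lor* (4315 against 19.9 CPM, 7.72, 7.24 to 8.24). *Lce3f* and *Klk14* had no UMI in E19 and were at least 499-fold and 347-fold higher in the adult than the level of 3 UMIs there. *Calm4*, a calmodulin-like protein of epidermis, stood at 937 against 3.51 CPM, adenosine deaminase (*Ada*) at 853 against 2.93 CPM, and *Fam25c* at 1811 against 11.1 CPM. *Ghrl* was among the 12 largest and rested on the single cell described above. Of 16 protease inhibitors 12 were higher and 0 lower (median 3.95), of 17 lipid genes 13 were higher and 2 lower (median 2.28), and of 22 defense genes 11 were higher and 2 lower (median 1.05). The remaining genes among the 12 highest were *Lce3e* (470 against 0.59 CPM), *Lce3c* (500 against 1.17 CPM) and *Aldh3a1*. The member of the envelope list that was lower was the small proline-rich *Sprr2f*, at 9.97 against 153 CPM.

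The 12 genes with the largest differences in the lower direction included uroplakins, the plaque proteins best known from the bladder surface, and several of these 12 genes were higher still in the pup than in E19. *Upk1b* stood at 87.5 CPM in E15, 432 in E19, 987 in pup and 0.93 in adult cells, a log2 ratio of adult over E19 of −8.44 (−10.32 to −7.08). *Upk2* had 2 UMIs in the adult and 358 in E19. *Upk3bl* stood at 483, 1623, 856 and 14.3 CPM, and *Upk3a* at 452, 81.3, 0 and 0 CPM, at least 87.0-fold lower in the adult than in E19. The proteolipid *Mal* stood at 128, 944, 1811 and 7.17 CPM and the surface antigen *Psca* at 107, 2852, 29951 and 66.4 CPM, where immune cells had 17.8 and 73.1 CPM. The peptidoglycan-binding *Pglyrp1* (351 and 5.61 CPM in E19 and adult) and *Lgi2* (284 and 4.67 CPM) were also among the 12 lowest, and the predicted gene *Gm9573* had no UMI in the adult and was at least 73.2-fold lower. Of 5 simple keratins, 4 were lower (background 8.25%) and 0 higher (median −3.19), with *Krt7* at 1227 and 10.3 CPM and *Krt19* at 1707 and 47.0 CPM in E19 and adult. The lipoxygenase *Alox15* had no UMI in the adult and was at least 190-fold lower than in E19 (178 CPM). Claudin 3 (*Cldn3*), with 1 UMI in the adult and 262 in E19, had a log2 ratio of −7.95 (−11.00 to −6.08), and 6 of 13 tight junction and cadherin genes were lower (background 8.25%) while 1, *Cldn17*, was higher (background 8.53%).

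**Figure D3:**
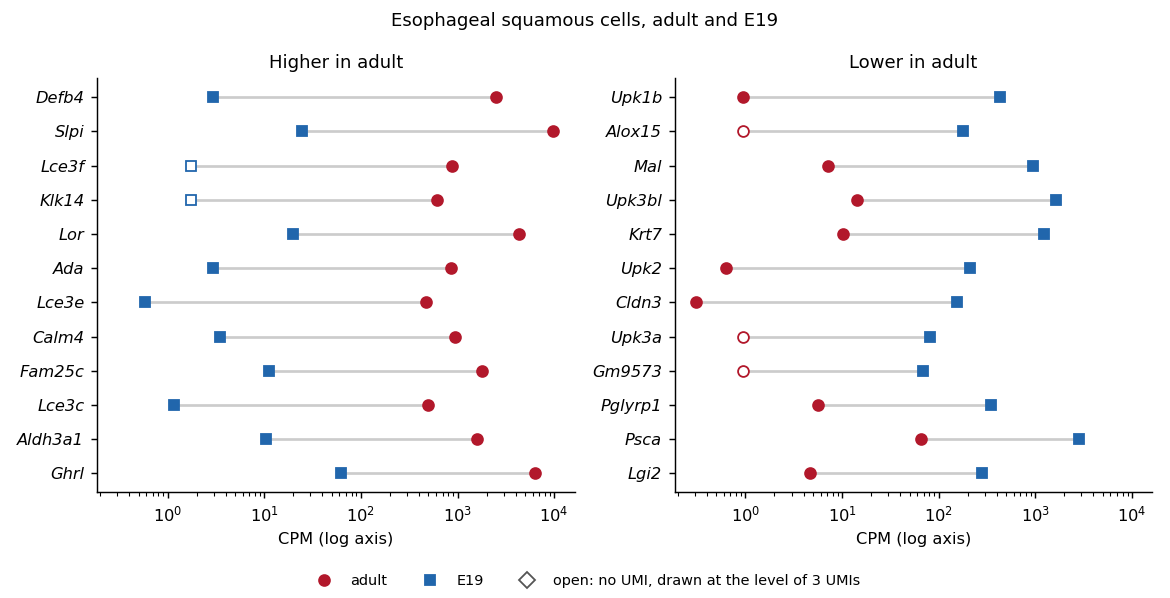
Level in CPM (x axis, log axis) in adult (circles) and E19 (squares) esophageal squamous cells of 12 genes per direction, ranked by the interval bound of their ratio that is nearest to 0, with open symbols for 0 UMIs, drawn at the level of 3 UMIs. *Slpi* (9719 against 24.6 CPM) and *Lor* (4315 against 19.9 CPM) are among the higher genes and *Upk3bl* (14.3 against 1623 CPM) among the lower ones.

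Fetal and imprinted genes were lower in the adult as a list. Of 13 with enough UMIs, 11 were at least 2-fold lower (background 8.25%) and 0 higher, with a median log2 ratio of −2.79. The imprinted growth genes *Igf2* (932, 671, 593 and 15.6 CPM in E15, E19, pup and adult) and *H19* (4191, 3425, 3219 and 339 CPM) were high at each stage before the adult. Immune cells of all stages had 428 CPM of *H19*. Adult cells had 647, 531, 290 and 196 CPM in bins 1 to 4, above the immune level in bins 1 and 2 and below it in bins 3 and 4, with 96.5 CPM in bin 4 without the cell that held the most. The cell cycle inhibitor *Cdkn1c*, also imprinted, stood at 231 and 27.7 CPM in E19 and adult. Of 4 fibroblast genes and 4 globin genes, all were lower in the adult, with sums of 510 against 1349 CPM and 470 against 4341 CPM. Their part in the fetal list was not tested. Cells with more UMIs of other cells' markers than of squamous markers numbered 18 of 232 in the adult and 21 of 123 in E19. Without the cells that held more UMIs of other markers, *Col1a1*, *Col1a2*, *Col3a1*, the 4 globins and the imprinted *Dlk1* (−1.17 over all cells, 0.44 without) turned to positive ratios, and the imprinted *Meg3* (−1.33) turned to 0.40 in the most differentiated cells of both stages.

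Proliferation genes lay near the share of all genes, 83.2% of which were within 2-fold between the stages. Of 17 genes, 0 were higher and 1, the replication helicase subunit *Mcm6*, was lower (22.1 against 58.5 CPM), with a median log2 ratio of 0.02. *Mki67* stood at 139 and 136 CPM in adult and E19, a log2 ratio of 0.02 (−0.21 to 0.26). Shares of cells lay further apart than these summed levels. A *Mki67* UMI was found in 77 of 232 adult and 27 of 123 E19 cells. After thinning, which left out 61 and 20 cells, the shares were 33.3% (26.3–40.9%) and 17.5% (10.7–26.2%). For *Top2a* the thinned shares were 31.0% and 16.5%. The authors' phase calls put 25.9% and 13.0% in G2/M, but 13.8% and 21.1% in S phase. Bin 4 held 44.9% of the adult UMIs, and its part in the summed levels was not tested. The summed levels of *Trp63* (170 and 167 CPM, log2 ratio 0.02, −0.19 to 0.23) and *Col17a1* (174 and 168 CPM) were within 2-fold. Of 12 hemidesmosome and basement membrane genes, 1, *Itga6*, was higher (91.6 against 38.6 CPM, background 8.53%) and 4 were lower (background 8.25%), with a median log2 ratio of −0.50 and sums of 922 against 1308 CPM. The lower ones included *Itgb1* (70.7 against 194 CPM), the anchoring collagen *Col7a1* (17.1 against 48.0 CPM) and the kindlin *Fermt1* (23.1 against 64.4 CPM). Detoxification genes were mixed, with 9 of 23 higher and 3 lower beside the same background. *Aldh3a1* stood at 1580 against 10.5 CPM, *Gpx2* at 661 against 50.3 CPM and *Adh7* at 440 against 48.6 CPM, whereas the glutathione transferase *Gsto1* stood at 740 against 5018 CPM, with 23179 CPM in the pup. In the most basal cells of both stages, *Gsto1* turned to a positive log2 ratio of 1.03. Of 12 desmosome genes 6 were higher and 1, *Dsg2*, lower, and of 21 transcription factors 4 (*Klf4*, *Tfap2a*, *Grhl1* and *Ovol1*) were higher and 2 (*Foxe1* and *Elf3*) lower.

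**Figure D4:**
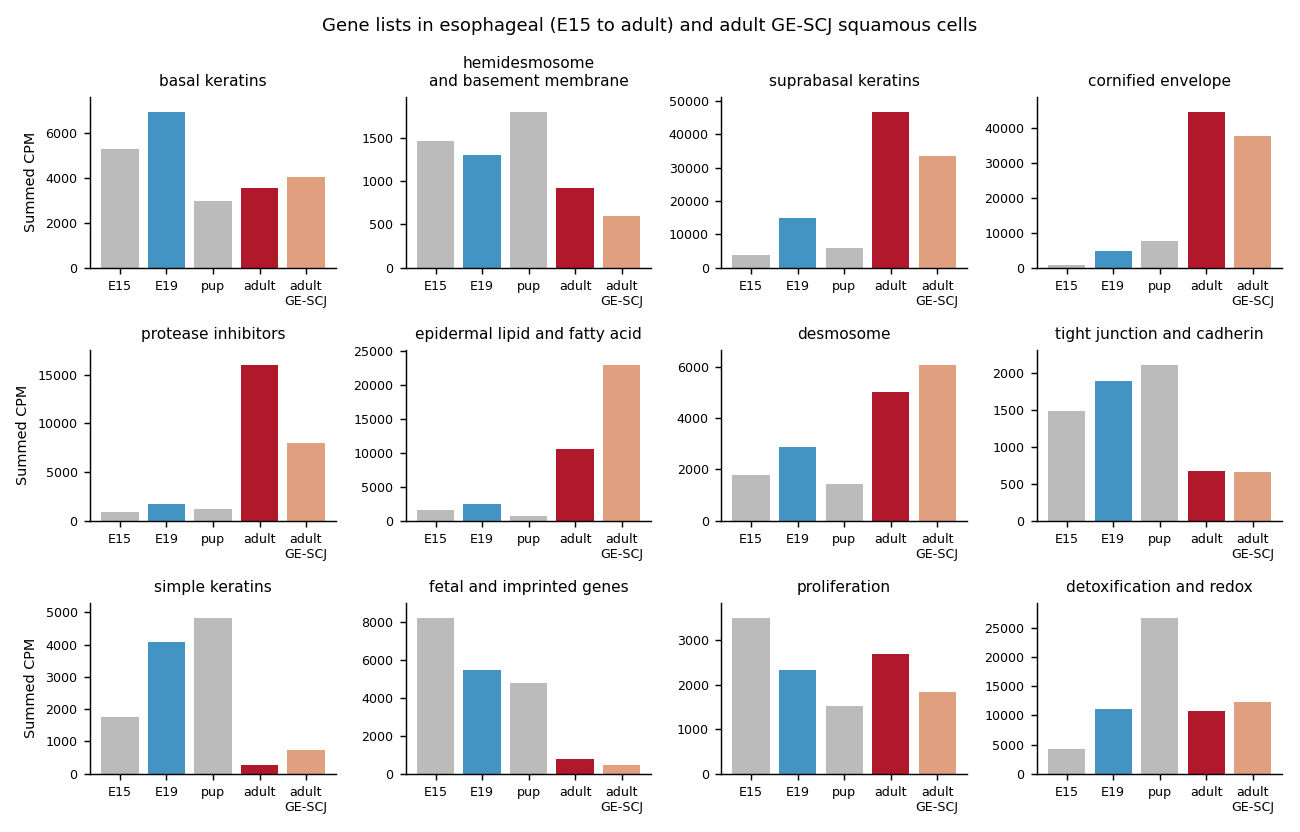
Summed level in CPM (y axis, starting at 0, its own scale per panel) of 12 gene lists in squamous cells of the E15, E19, pup and adult esophagus and of the adult GE-SCJ (x axis). The adult esophagus has 44397 CPM of cornified envelope genes against 4672 CPM in E19, and 758 CPM of fetal and imprinted genes against 5486 CPM.

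Basal cells differed between the stages as well. Because adult and E19 cells spread differently along the order, the 58 most basal adult cells (bin 1) were set against the 31 most basal E19 cells by the same score. The match is incomplete, since the E19 cells had shares of 0% to 3.08% (median 0.95%) and bin 1 of 0% to 11.2% (median 6.93%), and *Krt5*, *Krt14*, *Krt15*, *Krt13* and *Lor* belong to the score, so their values here are levels and not independent of the choice. Of 1123 genes with enough UMIs, 69 (6.14%) were higher and 102 (9.08%) lower in the adult, with a median log2 ratio of −0.25. *Lgals7* stood at 6315 against 341 CPM (log2 ratio 4.20, 3.95 to 4.46), *Krt14* at 2088 against 391 CPM and *Adh7* at 278 against 24.7 CPM (3.36, 2.48 to 4.40). Of 6 hemidesmosome and basement membrane genes, 1, the laminin receptor subunit *Itga6*, was higher (213 against 42.0 CPM) and 1, its fellow integrin *Itgb1*, was lower (132 against 341 CPM). *Gpx2* and *Gstm1*, enzymes of glutathione metabolism, stood at 382 against 42.0 and 627 against 89.0 CPM. Of 18 immediate early and heat shock genes 10 were higher and 0 lower, with *Hspa1a* at 1241 against 76.7 CPM. The median mitochondrial share was 5.55% in bin 1 and 1.99% in all E19 cells, and its part in these genes was not tested. Lower in adult basal cells were *Igf2* (30.4 against 757 CPM), *Cdkn1c* (15.2 against 274 CPM), *Krt19* (39.1 against 551 CPM), *Krt17* (43.4 against 500 CPM), the mesenchymal mitogen *Pdgfa* (65.1 against 344 CPM) and the Notch target *Hes1* (86.8 against 309 CPM). In the same comparison all 4 fibroblast genes (median −2.35, *Col3a1* at 234 against 1138 CPM and *Dcn* at 91.1 against 678 CPM) and all 4 globin genes (median −1.43) were lower in the adult, and their part in the lower fetal genes was not tested. *Krt15* stood at 3815 against 4912 CPM. *Top2a* differed by −0.15 (−0.43 to 0.13), and 0 of 11 proliferation genes passed 2-fold in either direction. *Krt13* itself was higher in the adult basal cells (658 against 98.9 CPM), where the score that chose them uses it. Its partner *Krt4*, which is not in the score, was lower (276 against 457.5 CPM, log2 ratio −0.73).

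At the other end, the 58 cells of bin 4 were set against the 30 most differentiated E19 cells. Of 2336 genes, 413 (17.7%) were higher and 265 (11.3%) lower in the adult. *Krt13* (49859 against 20164 CPM) and *Krt4* (35712 against 11911 CPM) differed by 1.31 and 1.58 on the log2 scale, *Krtdap* (29763 against 483 CPM) by 5.94, and *Lor* stood at 9495 against 39.9 CPM. *Krt5*, *Krt15*, *Krt13* and *Lor* are part of the score that chose these cells, and the shares do not overlap (65.9% to 94.4% in the E19 cells, 96.7% to 100% in bin 4), so their differences here are set by the choice and are given as levels. The E19 cells of that end had 6601 CPM of *Krt15*, 653 CPM of *Krt5*, 3158 CPM of *Krt19* and 988 CPM of *Upk1b*, where adult cells had 214, 34.7, 54.1 and 0.69 CPM.

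Signalling genes are given by role, with small counts beside a background of 8.53% higher and 8.25% lower. Of 7 Notch genes, 1 was higher in the adult (the target *Nrarp*, 66.4 against 32.2 CPM) and 1 lower (*Hes1*, 124 against 416 CPM), and *Jag2* and *Notch1* were within 2-fold. Of 9 WNT genes, the ligand *Wnt7b* (73.5 against 12.3 CPM) and the inhibitor *Sfrp1*, also a secreted protein (28.7 against 9.36 CPM), were higher, and the transcription factor *Tcf7l2* (51.1 against 138 CPM) was lower. The WNT ligand with the highest level, *Wnt4*, stood at 560 against 611 CPM. Of 10 genes of the EGF, FGF and PDGF pathways, the EGF receptor ligand *Ereg* was higher (44.9 against 1.17 CPM) and *Pdgfa* lower (25.9 against 175 CPM), and *Egfr* stood at 51.1 and 53.8 CPM. Of 2 BMP and TGF-beta genes with enough UMIs, 0 passed 2-fold.

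Squamous cells of the adult GE-SCJ were the other group compared. Against them, 5259 genes had enough UMIs, and 166 (3.16%) were at least 2-fold higher and 72 (1.37%) lower in the esophagus, with a median log2 ratio of 0.05. Keratins were among the genes that were lower in the esophagus. *Krt1* and *Krt10*, the keratin pair of differentiated epidermis, stood at 16.5 and 38.3 CPM in the esophagus and at 1966 and 2259 CPM in the GE-SCJ, log2 ratios of −6.87 (−7.28 to −6.48) and −5.87 (−6.14 to −5.61). Of 10 suprabasal keratins, 6 were lower (background 1.37%) and 1, *Krt78*, was higher (background 3.16%), with a median of −2.88. Of 5 simple keratins, 3 were lower and 0 higher. The wound and stress keratins *Krt6b* (6.23 against 490 CPM), *Krt16* (13.7 against 181 CPM) and *Krt17* (16.5 against 368 CPM) belonged to the lower ones, and *Krt13* (27514 against 17857 CPM) and *Krt4* (18750 against 9967 CPM) were within 2-fold. The chitinase-like *Chil4* (60.8 against 4102 CPM), lactoferrin (*Ltf*, 7.48 against 284 CPM) and *Psca* (66.4 against 998 CPM) were also lower, and the esophageal levels of *Ltf* and *Psca* were below those in immune cells (157 and 73.1 CPM). *Krt7* (10.3 against 291 CPM), *Mal* (7.17 against 115 CPM), the carboxylesterase *Ces1f* (4.05 against 83.1 CPM) and *Sprr2a3* (93.2 against 801 CPM) completed the 12 lowest.

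The *Lce3* genes were higher in the esophagus. Of 24 cornified envelope genes, 10 were higher (background 3.16%) and 1 lower (background 1.37%), with a median log2 ratio of 0.65. *Lce3a* stood at 347 against 0.64 CPM (1 UMI, log2 ratio 8.07, 6.22 to 11.12), *Lce3f* at 875 against 14.8 CPM, *Lce3e* at 470 against 4.51 CPM and *Lce3c* at 500 against 7.09 CPM. *Lce3b* had no UMI in the GE-SCJ and was at least 61.7-fold higher. Nearly all of their UMIs came from the 11 cells above, and in the GE-SCJ 6 cells had any *Lce3* UMI, 1 of them at least 10. *Lce3a* rested on 1 cell for 60.3% of its UMIs, and *Klk7*, also among the 12 highest, on 1 cell for 59 of its 100. *Ghrl*, *Ttr* and *Chga* rested on the endocrine-type transcripts of a single cell. The osteocalcin genes *Bglap3* (291 against 24.5 CPM) and *Bglap2* (no UMI in the GE-SCJ, at least 24.3-fold higher) are near-identical copies, and reads of one can be counted for another. The protein *Dynap* was found in 55 adult esophageal cells at 49.9 CPM and had 0 UMIs in the GE-SCJ, E15, E19 and pup squamous groups and in immune cells, which made it at least 25.8-fold higher than in the GE-SCJ.

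Of 11 desmosome genes and of 14 proliferation genes, 0 passed 2-fold in either direction, where 95.5% of all genes tested were within 2-fold. Of 4 fibroblast genes 2 were higher in the esophagus and 0 lower (background 3.16% and 1.37%), with sums of 510 against 261 CPM. Of 6 fetal and imprinted genes 2 were higher and 0 lower. Of 7 columnar and 4 globin genes, 0 passed 2-fold. The part of other cells' RNA in this comparison was not tested. Of 21 transcription factors 1, *Pax9*, a factor of foregut squamous epithelium, was higher (158 against 54.8 CPM, log2 ratio 1.51, 1.18 to 1.86). A count of 1 is too small to set apart from the background of 3.16%. Of 18 protease inhibitors, 4 were higher (background 3.16%), with *Slpi* at 9719 against 2434 CPM, and 1 was lower (background 1.37%). Of 15 lipid genes, 3 were higher and 1, *Fabp5*, was lower (8594 against 21232 CPM). The most differentiated 58 esophageal cells and the most differentiated 21 GE-SCJ cells were set side by side too, with *Krt1* at 30.5 against 3283 CPM, *Krt10* at 52.8 against 3553 CPM, *Lce3f* at 1950 against 33.9 CPM and *Slpi* at 21505 against 5797 CPM. *Psca*, lower over all cells, stood at 63.2 against 33.9 CPM in these cells. Of 3 simple keratins 2 were higher and 1 was lower, where 4.61% of all 2428 genes were higher and 1.98% lower. In the most basal cells of both regions (58 and 22 cells), *Krt14* stood at 2088 against 5097 CPM, *Krt15* at 3815 against 1861 CPM and *Krt17* at 43.4 against 1066 CPM.

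**Figure D5:**
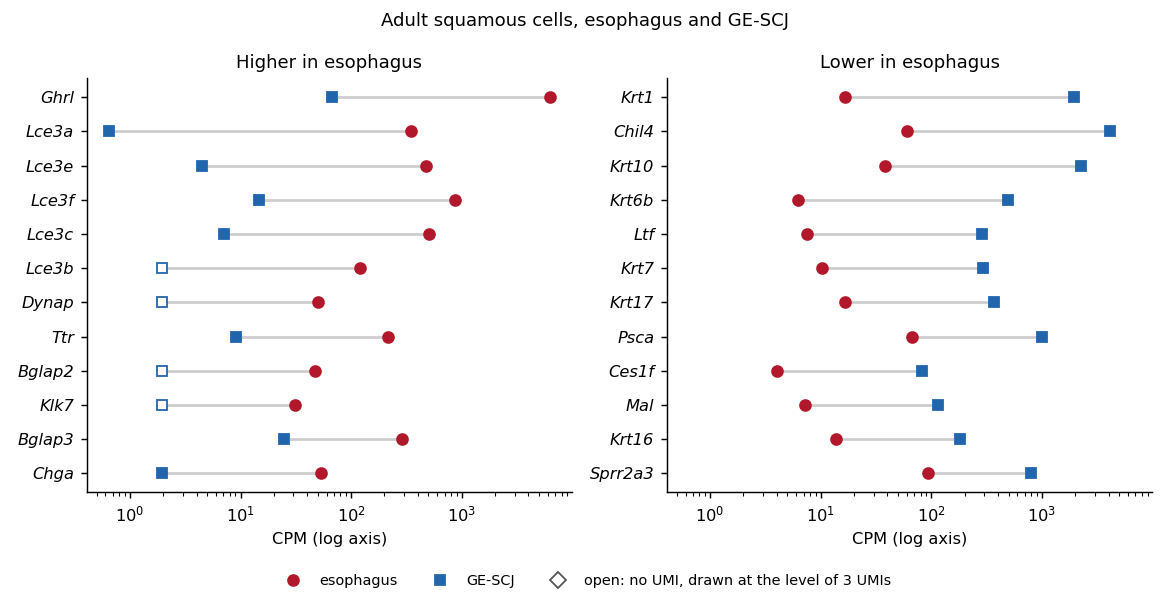
Level in CPM (x axis, log axis) in adult esophageal and adult GE-SCJ squamous cells of 12 genes per direction, ranked by the interval bound of their ratio that is nearest to 0, with open symbols for 0 UMIs, drawn at the level of 3 UMIs. The 5 *Lce3* genes are among the genes higher in the esophagus, and *Krt1* (16.5 against 1966 CPM) and *Krt10* (38.3 against 2259 CPM) lead the lower ones.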

How the data were processed

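Single cells of 11 region and stage tags were sequenced in 1 pool, described by 2 GEO samples (gene expression and tag library). The authors ran Cell Ranger 6.1.1 multi on mm10, assigned cells to tags, and removed barcodes outside set ranges of detected genes, UMIs and mitochondrial reads, as well as subgroups of poor counts, which was also their treatment of doublets. No further doublets were removed. They deposited raw UMI counts of 19550 genes in 7808 cells, without normalization, and a table with each cell's tag, class label, phase call, UMI total and percent of mitochondrial UMIs, which the authors computed from those counts. UMI totals and tags were the same in both deposited tables for all 7808 cells.

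Cells were grouped by tag and label. UMIs of a gene were summed per group and scaled to CPM. Depth ranged from 538863 to 3209407 UMIs in the whole squamous groups, and the immune cells held 3763867 UMIs. It ranged from 460782 to 1440760 in the 4 adult bins, and from 268195 to 649088 in the bins of E19 and GE-SCJ cells set against them. Exact Poisson and Clopper-Pearson 95% intervals give the counting precision. Log2 ratios of sums had 1 UMI added to each and an exact interval conditional on both counts so raised. A gene was called at 2-fold with at least 100 UMIs over both groups. Where a group had no UMI, the fold is against 3 counts over the group. With 1 sample per group, no test was made in the 3 comparisons.

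The cells, gene lists and comparisons were chosen with earlier results of these data known. The text names 6 marker genes, the 20 most abundant genes, up to 12 genes per direction and comparison by the interval bound nearest to 0, and list members with the largest differences or the highest level. Other members were named after their values were seen. Neighbours (15) were searched in 30 principal components of 2000 variable genes scaled to 10000 UMIs per cell. Gene coordinates are from GENCODE M21 on GRCm38, where all 412 names were found, and promoter windows from RefSeq on GRCm38.p6. Alternatives changed the library size, cell filters, UMI minimum, pseudocount, thinning (5000 UMIs, seed 1), the order and the cells compared. Thinning left out cells with fewer than 5000 UMIs. The ratios and their intervals were tested on simulated data. The simulated counts held counting error only, which the intervals assume, and no spread between cells or mice. In a first draw the intervals of changed genes held the true ratio less often than their level, and over repeated draws they held it at about their level on average. The listed genes Flg, Flg2, Krt2 and Krt24 are not analysed here. Software was pandas 2.3.3, scipy 1.17.1, matplotlib 3.10.9, numpy 2.4.6 and scikit-learn 1.9.0 under Python 3.11.15.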

Additional observations from a re-analysis of the deposited data

Results flagged for a closer look

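For 4 of the 223 named or listed genes with at least 100 UMIs in both regions, the difference between adult and E19 squamous cells had opposite directions in the esophagus and the GE-SCJ, each by at least 2-fold. These differences between regions were not tested, since each group is 1 sample, and the E19 GE-SCJ group holds 34 cells. *Krt17* had a log2 ratio of −4.47 in the esophagus (16.5 against 372 CPM) and 4.31 in the GE-SCJ (368 against 16.7 CPM). *Chil4* had −2.93 in the esophagus (60.8 against 466 CPM), and in the GE-SCJ it stood at 4102 CPM in the adult and had no UMI in E19. The globins *Hba-a1* and *Hbb-bs* had esophageal ratios of −3.62 and −3.10 and GE-SCJ ratios of 1.41 and 1.32, and without cells with more UMIs of other markers the esophageal ratios were 0.72 and 0.28. In addition, 396 of the 898 adult esophageal *Hbb-bs* UMIs came from 1 cell. For *Chil4*, the ratio in the esophagus became 3.71 without the 1% of cells with the most of its UMIs.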

How the results depend on the processing

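No paired analysis was possible because each region and stage is 1 pooled sample. Counts of called genes followed the UMI minimum, thinning and the cells compared, by construction of those choices. For adult over E19 (489 higher, 473 lower), the higher genes numbered 246 with at least 300 UMIs, 163 with cells thinned to 5000 UMIs, 154 with bin 1 against all E19 cells and 69 with the most basal bins of both. The lower genes numbered 851 with at least 50 UMIs, 147 with at least 300, 112 after thinning, 102 in the most basal bins and 265 in the most differentiated bins, an alternative chosen after seeing the data. For bin 4 over bin 1 (630 higher, 368 lower), the counts were 239 and 90 with at least 300 UMIs and 109 and 66 after thinning, and 833 genes were lower with at least 50 UMIs. For the esophagus over the GE-SCJ (166 higher, 72 lower), higher genes numbered 312 with at least 50 UMIs, 65 with at least 300, 106 with 10 CPM added, 43 after thinning and 31 in the most basal bins (chosen after seeing the data), and lower genes numbered 35 with at least 300 UMIs, 29 after thinning and 30 in the most basal bins. Of 30 lists, 8 were summed 2-fold higher and 8 lower in the adult than in E19.

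Some single log2 ratios changed sign, and the cause was not tested beyond the cells each choice leaves. With bin 1 against all E19 cells, differentiation genes turned lower in the adult, since bin 1 has little of them: *Krt13* −3.68, *Krtdap* −3.09, *Krt4* −4.24, *Cnfn* −6.50, *Crct1* −5.31, *Csta1* −4.92, *Ly6d* −3.43, *Sprr3* −3.34, *Fabp5* −2.79, *Lypd3* −2.62, *Sbsn* −2.58, *Mt4* −2.32, *Dmkn* −1.80, *Dgat2* −1.45, *Tgm3* −1.13, *Aldh3b2* −0.93, *Elovl1* −0.59 and *Pkp1* −0.13, with *Col7a1* at 0.27. In the most basal bins of both stages, *Fabp5* was at −1.38, *Krt4* at −0.73, *Serpinb5* at −0.16, *Gsto1* at 1.03 and *Cbr2* at 0.44. In the most differentiated bins of both, *Chil4* was at 4.78, *Col1a2* at 2.27, *Col1a1* at 1.36, *Col3a1* at 1.18, *Hba-a2* at 0.51, *Hbb-bs* at 0.42 and *Meg3* at 0.40. Without cells with more UMIs of other markers, *Hba-a1* was at 0.72, *Hba-a2* at 0.54, *Col3a1* at 0.52, *Col1a2* at 0.48, *Hbb-bt* at 0.46, *Dlk1* at 0.44, *Col1a1* at 0.39 and *Hbb-bs* at 0.28. *Chil4* was at 3.71 without its 1% of cells. For bin 4 over bin 1, *Ghrl* was at 0.66 without cells of other markers, 0.65 without the 3 cells that stood apart (chosen after seeing the data) and 0.51 in the order by the first principal component. For the esophagus over the GE-SCJ, *Ghrl* was at −0.10 without its 1% of cells, *Psca* at 0.85 in the most differentiated bins, *Aldh3a1* at −0.13 in the most basal bins and *S100a8* at −0.028 with the mean of each cell's CPM. Of all values recomputed, 2875 of 3839 stayed within the interval for adult over E19, 2651 of 2949 for bin 4 over bin 1, and 2841 of 3388 for the GE-SCJ comparison. Depth limits genes under 100 UMIs, and mice, litters and sex cannot be separated from stage.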

Other observations

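The pup squamous cells, between E19 and adult in age, did not lie between them for several genes. *Psca* stood at 29951 CPM in the pup against 2852 CPM in E19 and 66.4 CPM in the adult, the antimicrobial lactoferrin *Ltf* at 8748, 208 and 7.48 CPM, the peptidoglycan-binding *Pglyrp1* at 4703, 351 and 5.61 CPM, and *Gsto1* at 23179, 5018 and 740 CPM. *Krt4* stood at 1052 CPM in the pup against 5249 CPM in E19 and 18750 CPM in the adult. Of the 85 pup cells, 29 carried the second squamous label, which no adult esophageal cell carried.

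UMIs of 4 Y-linked genes numbered 14 in adult, 3 in pup, 133 in E19 and 160 in E15 esophageal squamous cells, and *Xist* stood at 2487, 975, 755 and 225 CPM. Within adult cells *Xist* stood at 5135, 4253, 2625 and 911 CPM in bins 1 to 4.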
